A study of Mus musculus with 18 samples.

Results

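AMP-activated protein kinase (AMPK) is built from a catalytic α, a scaffolding β and a nucleotide-binding γ subunit, and the mouse has 7 genes for them: *Prkaa1* and *Prkaa2* (α1, α2), *Prkab1* and *Prkab2* (β1, β2), and *Prkag1*, *Prkag2* and *Prkag3* (γ1, γ2, γ3). These genes and the upstream kinases *Stk11* (LKB1) and *Camkk2* were followed by gene symbol in thick ascending limbs (TAL) of Henle's loop, and 9 of 9 were found among 55401 genes. No member was called, at a Benjamini-Hochberg adjusted p under 0.05, in any of 5 comparisons between segments and genotypes, and α2, β1 and γ1 were the main isoforms by transcript level in every pool. Of 92 other genes of the pathway, 82 could be tested between cKO and WT MTAL. Of these, 7 (8.54%) were called, among them *Rragd*, *Tbc1d1*, *Fnip2* and *Ppargc1a*, where 7.01% of all genes were called. The count was 3 without cKO MTAL replicate 20, and it ranged from 2 to 13 with other tests and fits.

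The study asked how loss of claudin-10, a paracellular sodium pore, bears on gene expression in the cortical (CTAL) and medullary (MTAL) part of the TAL. The 4 groups were WT CTAL (n = 5), cKO CTAL (n = 5), WT MTAL (n = 5) and cKO MTAL (n = 3), all from mice labelled as C57BL/6J and described in the methods as adult, male and mostly of C57BL/6 background. All mice carried *Cldn10* fl/fl alleles, and the cKO mice also carried Ksp-Cre, in which the Ksp-cadherin promoter drives Cre in the distal nephron. The WT group were littermates that lacked Ksp-Cre. Each sample was a pool of tubules dissected by hand from a single animal, so that replicates are separate mice and the Cre was not restricted to the TAL. Levels are given as CPM, which scales the counts of each pool to a common library size after TMM normalization, or as TPM, which also corrects for transcript length and is used wherever genes are compared with each other.

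AMPK responds to a fall in cellular energy. AMP and ADP bind the γ subunit, LKB1 or CaMKK2 phosphorylates the α subunit, the latter in response to calcium, and the active kinase restrains anabolic enzymes and mTORC1 and favours ATP production. In the TAL, a segment with a high demand for ATP, AMPK is known to phosphorylate the Na-K-2Cl cotransporter NKCC2. The activity of the kinase is set on the protein, and the data below hold transcript levels only.

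Total counts ranged from 10824299 to 62339939 per pool. *Cldn10* itself lay at 384 to 579 CPM in WT CTAL, 156 to 185 CPM in cKO CTAL, 653 to 810 CPM in WT MTAL and 151 to 295 CPM in cKO MTAL, so that the transcript was reduced and not absent. WT CTAL replicate 1, whose labels conflict, lay at 446 CPM of *Cldn10* and was kept as WT. *Slc12a1* (NKCC2), which defines the TAL, lay between 11420 and 16150 CPM in every pool. *Xist*, a transcript of female cells, lay at 6.50 to 8.77 CPM in 7 pools, 4 of 5 WT MTAL, 2 of 5 WT CTAL, 1 of 5 cKO CTAL and 0 of 3 cKO MTAL pools, and at 0.234 to 0.738 CPM in the other pools, so that its presence moved with the genotype in MTAL. The level in these 7 pools goes against the male sex that the methods state for all mice. The summed level of 7 principal cell markers was 1041 CPM in cKO MTAL replicate 20 and at most 349 CPM in every other pool, with *Aqp2* alone at 551 CPM in that pool. Between WT and cKO MTAL, the summed markers did not overlap for TAL (51060 to 62590 against 68310 to 80680 CPM), endothelium (275 to 423 against 156 to 260 CPM), thin limb (801 to 1083 against 733 to 789 CPM), proximal tubule (36.4 to 58.8 against 64.7 to 186 CPM) and fibroblast and pericyte (53.3 to 63.2 against 73.5 to 79.7 CPM). The part of these differences in the results for MTAL was not tested, and in such pools fewer cells of a type and less RNA per cell cannot be told apart.

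The 9 genes lie on 6 chromosomes of GRCm38, the build also called mm10. *Prkaa2* (chr4:105029874-105109890, minus strand) has a single annotated transcript. *Prkag2* (chr5:24862744-25100642, minus strand) has 10, among them coding transcripts of 3331, 2838 and 2205 bases that begin at separate starts far apart in the gene. *Prkag2* also overlaps 3 genes on the other strand, and *Prkaa1*, *Prkab1*, *Prkab2*, *Prkag1* and *Stk11* overlap 1 each. The library preparation was strand-specific, so that reads of these partners differ in strand from those of the members. Whether the counting used the strand is not given in the sources used here. The part of the partners in the counts of the members was not tested.

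The 250 bases upstream of the RefSeq start of *Prkaa2* and of the 3 starts of *Prkag2* (RefSeq, GRCm38.p6, printed 5′ to 3′ on the minus strand) are shown because *Prkaa2* had the clearest separation between groups and because the coding transcripts of *Prkag2* are annotated from separate starts. Which start was used was not measured. Capitals mark matches, on either strand, to the GC box GGGCGG or the CCAAT box CCAAT. The sequences are, in order, chr4:105109899-105110148, chr5:25100643-25100892, chr5:24995754-24996003 and chr5:24908510-24908759.
Prkaa2: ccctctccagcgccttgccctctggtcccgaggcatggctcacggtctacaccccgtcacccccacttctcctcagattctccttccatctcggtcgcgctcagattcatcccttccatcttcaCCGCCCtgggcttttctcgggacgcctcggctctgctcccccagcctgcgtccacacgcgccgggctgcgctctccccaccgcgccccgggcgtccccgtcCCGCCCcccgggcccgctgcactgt
Prkag2 start 1: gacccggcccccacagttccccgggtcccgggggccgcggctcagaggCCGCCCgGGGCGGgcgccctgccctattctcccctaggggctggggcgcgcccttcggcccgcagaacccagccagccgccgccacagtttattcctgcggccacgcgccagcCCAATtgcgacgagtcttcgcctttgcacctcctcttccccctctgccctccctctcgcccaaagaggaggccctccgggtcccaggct
Prkag2 start 2: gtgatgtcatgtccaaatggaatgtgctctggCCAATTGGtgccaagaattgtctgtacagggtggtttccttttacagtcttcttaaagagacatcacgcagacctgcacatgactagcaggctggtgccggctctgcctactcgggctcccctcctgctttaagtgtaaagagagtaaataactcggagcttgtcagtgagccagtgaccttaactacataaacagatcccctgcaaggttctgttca
Prkag2 start 3: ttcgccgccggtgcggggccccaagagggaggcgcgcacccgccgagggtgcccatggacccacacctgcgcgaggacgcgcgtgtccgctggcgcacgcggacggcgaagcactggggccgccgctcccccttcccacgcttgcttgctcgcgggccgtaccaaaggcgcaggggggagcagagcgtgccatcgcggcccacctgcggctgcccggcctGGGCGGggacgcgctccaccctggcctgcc
The *Prkaa2* window held 2 GC boxes and no CCAAT box, and 70.0% of its bases were G or C. The *Prkag2* windows differed among themselves. The first held 2 GC boxes and 1 CCAAT box at 73.2% G or C, the second held 2 overlapping CCAAT matches on opposite strands and no GC box at 48.4%, and the third held 1 GC box at 77.2%. Over all 32851 promoters of this length, 32.7% held a GC box and 33.8% a CCAAT box. A cAMP response element (TGACGTCA), an E-box (CACGTG) and a TATA box (TATAAA) were also searched and were found in none of the 4 windows, against 1.55%, 6.02% and 12.4% of all promoters.

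Per transcript length, the 9 genes kept nearly the same order in all pools. The LKB1 gene *Stk11* was the highest, with a median of 69.3 TPM over the 18 pools (55.8 to 89.3). *Prkab1* followed with 47.4 TPM (37.8 to 66.3), *Prkag1* with 34.7 TPM (25.5 to 55.3) and *Prkaa2* with 24 TPM (19 to 31.1). *Prkaa1* had a median of 15.4 TPM (12.7 to 19.7) and *Prkag2* of 11.6 TPM (7.26 to 25.3). The calcium-responsive kinase *Camkk2*, at 5.72 TPM (3.21 to 10), and *Prkab2*, at 2.48 TPM (1.21 to 10.6), were the lowest of the genes that could be tested. The ranges of neighbours in this order overlapped, except those of *Prkab2* and *Prkag3* (0 to 0.146 TPM). Within single pools, however, each gene lay above the next in 16 to 18 of 18 pools.

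*Prkag3*, the γ subunit known from skeletal muscle, had 22 counts over all pools, between 0 and 6 per pool, and was at 0 in 10 pools. A count of 0 allows up to 3 counts by counting error alone. It did not pass the filter on low counts, so that 8 of the 9 members were tested. Of 5 skeletal muscle markers, 1 was above 1 CPM in each group.

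In CPM, the highest pool of each of the 8 tested genes lay at 1.32 times (*Stk11*) to 2.44 times (*Prkab2*) its lowest. *Stk11* had a coefficient of variation of 6.98% over the 18 pools, *Prkaa2* of 10%, *Prkab1* of 10.2% and *Prkaa1* of 10.9%. The value was 16.6% for *Prkag1*, 18.9% for *Prkag2*, 23.2% for *Camkk2* and 25.5% for *Prkab2*, the last of which had as few as 81 counts in a pool.

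**Figure D1:**
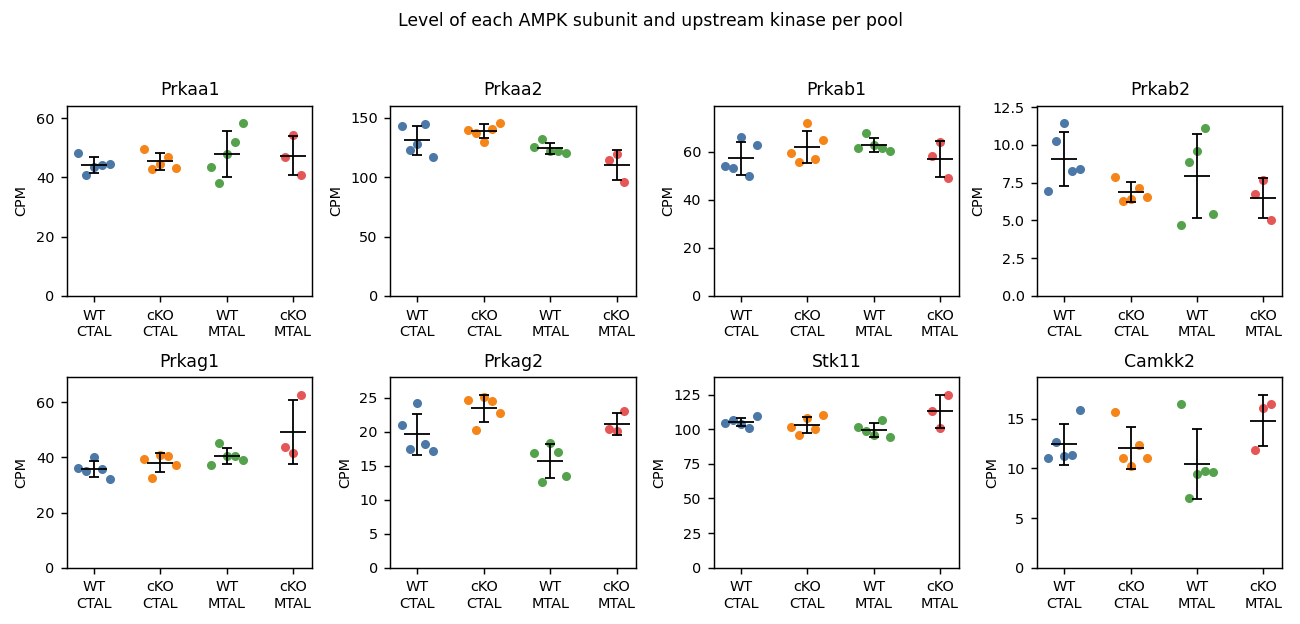
Level of the 8 tested AMPK subunit and upstream kinase genes in CPM (y axis, from 0) in each pool of the 4 groups (x axis), with the mean and SD of each group as black lines. The 3 cKO MTAL pools of *Prkaa2* lie between 96.0 and 120 CPM, below the cKO CTAL pools, and the WT MTAL pools of *Prkag2* lie between 12.7 and 18.4 CPM, below the cKO MTAL pools.

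Within each subunit class, the share of the summed TPM held by each isoform was computed per pool, as a description with no test. The α2 gene held more of the α class than α1 in all 18 pools, with shares of 53.9% to 66.1%. Its median share was 62.7% in WT CTAL, 63.1% in cKO CTAL, 59.0% in WT MTAL and 57.0% in cKO MTAL. The 3 cKO MTAL pools (55.5% to 58.1%) lay below all 5 cKO CTAL pools (61.7% to 65.5%) and within the range of WT MTAL (53.9% to 66.1%).

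β1 dominated the β class, with a median share over all pools of 95.1% (78.1% to 97.5%). γ1 held 75.3% of the γ class (68.6% to 81.1%), γ2 24.7% (18.9% to 31.4%) and γ3 at most 0.247%. The summed TPM of the γ class lay between 59.1 and 80.6 in cKO MTAL, above all 15 other pools, which reached 55.3. The α class (38.4 to 44.4 TPM in cKO MTAL, 33.0 to 49.3 TPM over all pools) and the β class (43.7 to 58.3 TPM against 42.5 to 68.7 TPM) were not set apart in this way. In CPM neither γ1 nor γ2 alone was set apart in cKO MTAL. *Prkag1* lay there at 41.7 to 62.8 CPM, against up to 45.4 CPM in WT MTAL. *Prkag2* lay there at 20.1 to 23.1 CPM, against up to 25.1 CPM in cKO CTAL. The share of all genes set apart in TPM in cKO MTAL was not computed.

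**Figure D2:**
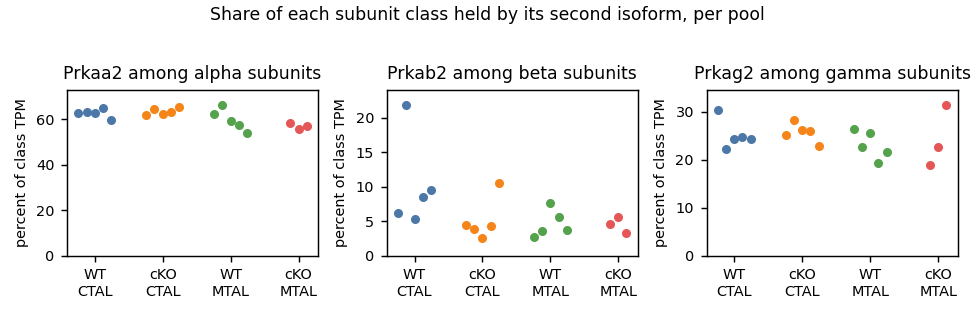
Share of the summed TPM of its subunit class (y axis, percent, from 0) held by *Prkaa2*, *Prkab2* and *Prkag2* in each pool of the 4 groups (x axis). *Prkaa2* holds 53.9% to 66.1% of the α class in every pool, *Prkab2* holds 2.54% to 21.9% of the β class with its highest values in WT CTAL replicate 3 and cKO CTAL replicate 21, and *Prkag2* holds 18.9% to 31.4% of the γ class.

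The first comparison asked whether AMPK transcripts differ between cKO and WT MTAL. With edgeR's quasi-likelihood test and Benjamini-Hochberg adjustment over all genes, 0 of the 8 members were called at an adjusted p under 0.05, against 7.01% of the 12060 genes tested. None had an unadjusted p under 0.05 either, which 23.6% of all genes had. The likelihood ratio test of edgeR, both DESeq2 tests and limma on TPM also called 0. The median log2 fold change of the members was 0.09, against 0.00 over all genes, and their median absolute log2 fold change was 0.24, against 0.25.

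Of the catalytic subunits, *Prkaa2* lay at 126, 132, 122, 122 and 120 CPM in WT MTAL and at 115, 120 and 96.0 CPM in cKO MTAL. All 3 cKO pools were below all 5 WT pools, the nearest by under 1 CPM, and replicate 20 was the lowest. The log2 fold change was -0.17 (95% interval -0.41 to 0.07, adjusted p = 0.404), and -0.07 without replicate 20. The groups overlapped in TPM, where the log2 fold change had the opposite sign, and in CPM from total counts. *Prkaa1* had a log2 fold change of -0.01 (-0.36 to 0.34, adjusted p = 0.977).

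Of the regulatory subunits, *Prkag2* lay at 16.9, 12.7, 18.4, 17 and 13.4 CPM in WT MTAL and at 20.4, 20.1 and 23.1 CPM in cKO MTAL. The groups did not overlap, as for 14.4% of all genes tested, 6.79% with cKO higher and 7.65% with cKO lower, and *Prkaa2* and *Prkag2* were the 2 members of 8 in this position. The log2 fold change of *Prkag2* was 0.44 (-0.00 to 0.89, adjusted p = 0.213). In TPM the groups of *Prkag2* overlapped, with 7.26 to 12.2 TPM in WT and 11.7 to 25.3 TPM in cKO MTAL. *Prkag1* lay at 37.3, 45.4, 40.5, 40.7 and 39.1 CPM in WT MTAL and at 43.7, 41.7 and 62.8 CPM in cKO MTAL, where replicate 20 stood above all other pools of the series. Its log2 fold change was 0.29 (-0.06 to 0.63, adjusted p = 0.303), and 0.08 without replicate 20. In TPM the groups of *Prkag1* did not overlap, with 27.9 to 41.6 TPM in WT and 45.5 to 55.3 TPM in cKO MTAL, as for 12.9% of all genes. The β subunits *Prkab1* and *Prkab2* had log2 fold changes of -0.13 (-0.41 to 0.15) and -0.29 (-1.06 to 0.49), with overlapping groups. Without replicate 20 these were -0.03 and -0.13.

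The upstream kinases had positive fold changes. *Stk11* lay at 102, 98.6, 95.6, 107 and 94.6 CPM in WT MTAL and at 113, 101 and 125 CPM in cKO MTAL, with overlap. The log2 fold change was 0.19 (-0.05 to 0.43, adjusted p = 0.339), and 0.12 without cKO MTAL replicate 20. In TPM its groups did not overlap (55.8 to 69.9 against 75.7 to 89.3 TPM), as for 12.9% of all genes. *Camkk2* lay at 16.5, 7.01, 9.41, 9.74 and 9.62 CPM in WT MTAL and at 11.8, 16.1 and 16.5 CPM in cKO MTAL. Replicate 11 of WT MTAL was as high as the cKO pools, and it also had the highest principal cell markers of its group (349 CPM against a median of 112 CPM). The log2 fold change of *Camkk2* was 0.52 (-0.10 to 1.13, adjusted p = 0.3), and as low as 0.13 among the alternatives. In one fit of all 18 pools with a term for the pools with *Xist*, it was 0.93 with an adjusted p of 0.0229, which was the single call of a member in this comparison under any alternative.

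**Figure D3:**
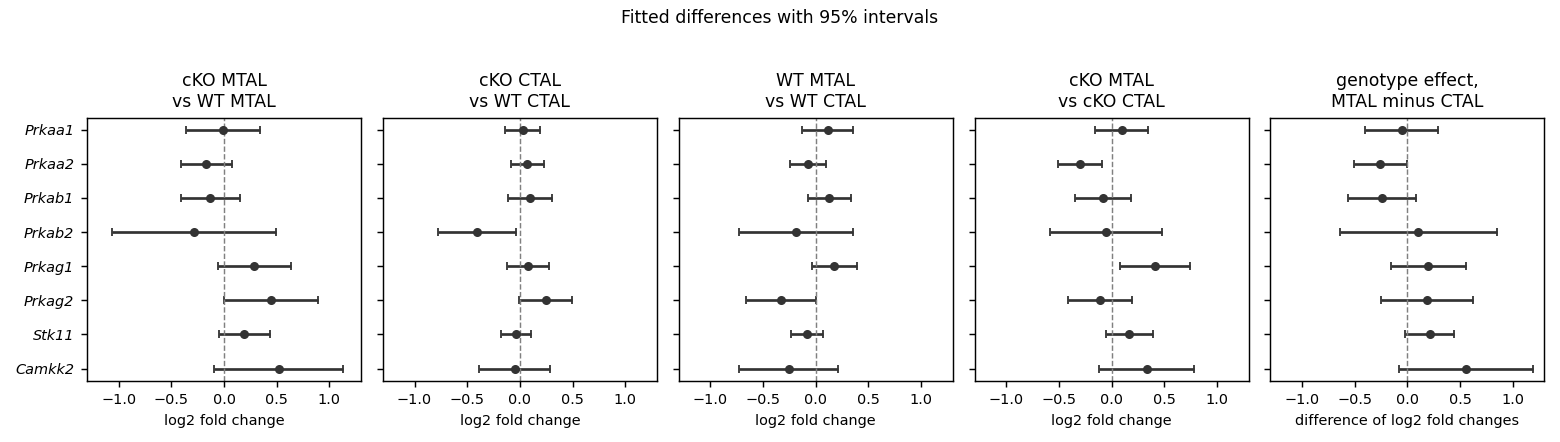
Fitted log2 fold change of each member (y axis) with its 95% interval (x axis, log2 scale) in the 4 pairwise comparisons and, in the last panel, the difference between the genotype effects in MTAL and CTAL. The points lie between -0.41 and 0.56, and 36 of the 40 intervals include 0.

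In CTAL, where the same deletion was compared in 5 against 5 pools, 0 of 8 members were called, against 1.22% of 11702 genes. The edgeR likelihood ratio test, the DESeq2 tests and limma also called 0. At an unadjusted p under 0.05, which 11.8% of all genes had, there was 1 member. This was *Prkab2*, with 6.93, 8.27, 8.38, 10.3 and 11.4 CPM in WT CTAL and 7.87, 6.57, 6.29, 6.44 and 7.16 CPM in cKO CTAL. The groups overlapped, as did those of the other members, whereas 3.09% of all genes had no overlap. The log2 fold change was -0.41 (-0.78 to -0.04, adjusted p = 0.359). *Prkag2* had a log2 fold change of 0.24 (-0.01 to 0.50, adjusted p = 0.445), of the same sign as in MTAL. The other 6 members had log2 fold changes between -0.05 and 0.09, with intervals that reached no further than -0.39 and 0.30.

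Between the segments of WT mice, 0 of 8 members were called, against 6.87% of 11650 genes, and none had an unadjusted p under 0.05, against 19.1% of all genes. The same count of 0 was found with the edgeR likelihood ratio test, DESeq2 and limma. With edgeR's quasi-likelihood test, *Prkag2* had the log2 fold change of largest size among the 8, at -0.33 (-0.66 to 0.01, adjusted p = 0.274). Its level was 15.7 ± 2.47 CPM in WT MTAL and 19.6 ± 2.99 CPM in WT CTAL (mean ± SD, n = 5). *Prkag1* had a log2 fold change of 0.18 (-0.04 to 0.39, adjusted p = 0.386). *Prkaa2* (-0.08), *Stk11* (-0.08), *Prkaa1* (0.11), *Prkab1* (0.13), *Prkab2* (-0.18) and *Camkk2* (-0.26) had log2 fold changes of smaller size, and the groups overlapped for all 8 members in CPM, whereas 7.37% of all genes had no overlap. This ranking did not hold under all alternatives. In one fit of all 18 pools with a term for *Xist*, *Camkk2* was at -0.47 and *Prkag2* at -0.34. *Prkab2* reached -0.90 among the alternatives.

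Between the segments of cKO mice, 0 of 8 members were called, against 1.75% of 12044 genes, and 2 had an unadjusted p under 0.05, against 17.7% of all genes. *Prkaa2* lay at 140, 146, 138, 130 and 141 CPM in cKO CTAL and at 115, 120 and 96.0 CPM in cKO MTAL. All 3 MTAL pools were below all 5 CTAL pools, as for 5.98% of all genes, 10.1% in either direction. The groups also did not overlap in TPM, as for 8.01% of all genes, or in CPM from total counts, as for 9.51%. The log2 fold change was -0.30 (-0.51 to -0.09, adjusted p = 0.131), and -0.22 without replicate 20. In one fit of all 18 pools the adjusted p of *Prkaa2* was 0.0385, and with a term for *Xist* it was 0.0266, whereas the edgeR likelihood ratio test, DESeq2 and limma called no member.

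*Prkag1* was the second, at 39.5, 37.1, 32.5, 41.0 and 40.6 CPM in cKO CTAL and 43.7, 41.7 and 62.8 CPM in cKO MTAL. Its groups did not overlap, with MTAL higher as for 4.15% of all genes, but lay less than 1 CPM apart at the nearest pools. They overlapped in CPM from total counts and did not overlap in TPM, as for 8.01% of all genes. The log2 fold change was 0.41 (0.08 to 0.75, adjusted p = 0.18), and 0.19 without replicate 20. The remaining members had log2 fold changes between -0.11 and 0.33.

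Whether the genotype effect differed between the segments was tested as an interaction in one fit of all 18 pools. No member was called, against 0.286% of 12586 genes, nor with the edgeR likelihood ratio test, DESeq2 or limma. The difference of log2 fold changes was -0.26 for *Prkaa2* (-0.51 to -0.00, unadjusted p = 0.0473, adjusted p = 0.334), the only member with an unadjusted p under 0.05, which 14.7% of all genes had. Without cKO MTAL replicate 20 it was -0.15 for *Prkaa2*, with an unadjusted p of 0.234 in the quasi-likelihood test. With all pools, the difference was 0.56 for *Camkk2* (-0.08 to 1.20, adjusted p = 0.414). The 5 comparisons share pools and are not independent of each other.

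With the exact two-sided Mann-Whitney test on CPM, 6 of 32 tests of a member in a pairwise comparison had a p under 0.05, with no adjustment over them. They were *Prkaa2* and *Prkag2* between the MTAL groups and *Prkaa2* and *Prkag1* between the cKO segments, each at 0.0357, the smallest p that 3 against 5 pools allow, and *Prkab2* between the CTAL groups and *Prkag1* between the WT segments, each at p = 0.0317 in this exact test. These were 2 of 8 members between the MTAL groups, where 14.4% of all genes had such a p, 2 of 8 between the cKO segments (10.1%), 1 of 8 between the CTAL groups (8.16%) and 1 of 8 between the WT segments (13.9%).

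CPM and TPM could order the pools of a member differently, for *Prkag2*, *Prkab2* and *Camkk2* and, as given above, for *Prkaa2*, *Prkag1* and *Stk11*. The ratio of count to TPM gives the transcript length that the quantification assigned to a gene in a pool, on a scale set by 472 genes with a single transcript, of which at least 59.1% lay within 10% of their annotated length in every pool. For *Prkaa2*, whose single transcript is annotated at 7969 bases, the implied length lay below that in every pool, between 6617 and 7724 bases. For *Stk11* it lay between 1844 and 2271 bases. For *Prkag2* it lay between 1379 and 3273 bases, a range that holds 2 of the 3 coding transcripts named above, those of 2838 and 2205 bases. The one of 3331 bases lies just above it. Because the implied length of *Prkaa2* fell short of its annotation, the range does not decide on that transcript. Shorter transcripts of the gene are also annotated, and which transcripts were present was not measured. It was 2523 to 3273 bases in cKO CTAL, 2112 to 2831 bases in WT CTAL, 1508 to 2809 bases in WT MTAL and 1379 to 2453 bases in cKO MTAL. The cKO CTAL pools lay above the cKO MTAL pools, with 2523 against 2453 bases at the nearest. The share of all genes with such a separation was not computed. The pool with the shortest implied length, cKO MTAL replicate 20, had the highest TPM (25.3) at 23.1 CPM.

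The implied length of *Prkab2* lay between 1258 and 5329 bases and that of *Camkk2* between 1324 and 4378 bases. The ratio of the highest to the lowest pool was 4.24 for *Prkab2*, 3.31 for *Camkk2* and 2.37 for *Prkag2*. Among 9258 genes, 1.57%, 4.13% and 12.4% had a ratio at least as large. The ratio was 1.5 for *Prkab1* (44.2% of genes) and 1.41 for *Prkag1* (51.2%). The 2 pools with the highest TPM share of *Prkab2*, WT CTAL replicate 3 and cKO CTAL replicate 21, had its shortest implied lengths, 1258 and 1599 bases. A level in TPM is the count divided by this length, so that the levels of the tested members in TPM carry its spread. It was widest for *Prkab2*, *Camkk2* and *Prkag2*.

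**Figure D4:**
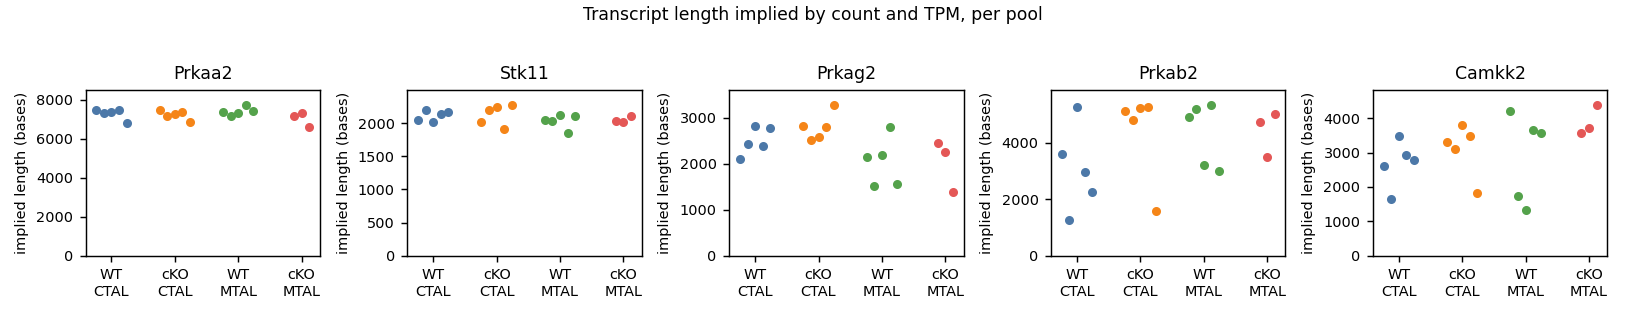
Transcript length implied by count and TPM (y axis, bases, from 0) for 5 members in each pool of the 4 groups (x axis). *Prkaa2* and *Stk11* stay within 6617 to 7724 and 1844 to 2271 bases, whereas *Prkag2*, *Prkab2* and *Camkk2* spread over 1379 to 3273, 1258 to 5329 and 1324 to 4378 bases.

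The genes whose log2(CPM + 1) followed a member most closely over the 18 pools are given by Pearson's r, as a description of pools that share library, depth and group structure. *Camkk2* was followed by *Cldn4* (r = 0.829), *Ppp2ca* (0.829) and *Tmem150c* (0.812), and the first of these, a claudin of the thin limb list used above, kept r = 0.85 after group means were subtracted. *Prkag2* was followed by *Smim6* (0.897), *Eef2kmt* (0.879) and *Tmcc3* (0.872), of which the last fell to 0.591 without group means. *Prkaa2* was followed by *4933404O12Rik* (0.862), *Ctbs* (0.846) and *Cnot6l* (0.834), and *Prkaa1* by *Ik* (0.894), *Ipo11* (0.845) and *Gemin8* (0.83). *Stk11* was followed by *Gm9774* (0.929), *Gpr137b-ps* (0.847) and *2410022M11Rik* (0.844), *Prkag1* by *Ap2m1-ps* (0.875), *Capn1* (0.867) and *Rtraf-ps* (0.849), *Prkab1* by *Micall2* (0.848), *Plekha5* (0.76) and *A730017L22Rik* (0.73), and *Prkab2* by *Kbtbd8* (0.792), *Ythdf3* (0.788) and *Cep135* (0.786). No member was among the 3 closest genes of another.

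Around the kinase, 92 genes in 8 lists were examined, covering partners of the upstream kinases, scaffolds, related kinases, substrates, ion transport, mTORC1 and energy buffering. Between cKO and WT MTAL, 7 of 82 tested genes were called, 4 up and 3 down, where 4.44% of all genes were called up and 2.57% down. *Rragd*, a Rag GTPase that recruits mTORC1 to the lysosome, was at 65.1 to 82.8 CPM in the 5 WT MTAL pools and at 113, 131 and 114 CPM in the cKO MTAL pools. It rose by 0.67 on the log2 scale (adjusted p = 0.00446 with edgeR's quasi-likelihood test) and was called under 18 of 18 alternatives. It was the 1 gene called of the 11 mTORC1 genes.

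Among the metabolic substrates of AMPK, 2 of 11 were called. *Tbc1d1*, a Rab GTPase-activating protein of glucose transporter traffic, was at 20.8 to 23.2 CPM in WT MTAL and at 29.5, 39.6 and 92.5 CPM in cKO MTAL, with replicate 20 far above the others. It rose by 1.27 on the log2 scale (adjusted p = 0.0095), and without that pool the log2 fold change was 0.63 with an adjusted p of 0.0654. *Acacb*, the acetyl-CoA carboxylase that limits fatty acid oxidation, fell by 0.47 (adjusted p = 0.022), from 260 to 324 CPM in WT to 193, 198 and 225 CPM in cKO MTAL, and lost the call in 4 of the 8 fits with a pool left out (highest adjusted p 0.0858). Of 14 substrates in growth and autophagy, 1 was called. *Ppargc1a*, a coactivator of mitochondrial biogenesis, fell by 0.65 (adjusted p = 0.0167, and 0.087 without replicate 20), with 353 to 559 CPM in WT and 278, 313 and 229 CPM in cKO MTAL.

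Of 10 scaffolds and regulators, 1 was called. *Fnip2*, a folliculin-interacting protein that binds AMPK, fell by 1.33 (adjusted p = 0.00257), from 46.1 to 87.1 CPM in WT MTAL to 24.4, 28.7 and 16.9 CPM in cKO MTAL, and stayed past the threshold with each pool left out. In CTAL its log2 fold change was -0.57 (adjusted p = 0.0992). Of 11 tested AMPK-related kinases, 2 were called. *Sik1*, a salt-inducible kinase, rose by 1.26 (adjusted p = 0.00879, and 0.0621 without replicate 20), with 27.5 to 66.0 CPM in WT and 63.3, 95.5 and 129 CPM in cKO MTAL. *Nuak2*, another kinase activated by LKB1, rose by 0.64 (adjusted p = 0.0361) and lost the call in 6 of the 8 fits with a pool left out, with 0.138 as the highest adjusted p. No gene was called among 8 LKB1 and CaMKK2 partners (smallest adjusted p 0.0808, *Calm3*), 8 genes of AMPK-regulated ion transport (0.223, *Kcnj1*) and 9 of energy buffering (0.0656, *Ckmt1*). Under alternatives, *Ckmt1* was called with DESeq2 (adjusted p = 0.0403 with the Wald test) and with limma on log2(TPM + 1) (0.0432). *Calm3* was called in one fit of all 18 pools, and *Ak4*, *Sesn3* and *Deptor* with both DESeq2 tests. Without cKO MTAL replicate 20, 3 genes of the lists were called. The edgeR likelihood ratio test called 9, DESeq2 called 11 or 12 depending on its test, limma called 2 and one fit of all 18 pools called 13. With the added requirement that the log2 fold change be 1 or more in size, which 3.74% of all genes passed, *Fnip2*, *Sik1* and *Tbc1d1* remained of the 7. With limma on log2(TPM + 1) *Rragd* was the 1 gene of the 7 still called. The adjusted p was 0.112 for *Fnip2*, 0.115 for *Tbc1d1*, 0.0511 for *Sik1*, 0.0624 for *Nuak2*, 0.182 for *Acacb* and 0.274 for *Ppargc1a*. Their log2 fold changes with limma were, in the same order, -0.80, 1.16, 1.84, 0.94, -0.39 and -0.39. In one fit of all 18 pools with a term for *Xist*, *Sik1* had a log2 fold change of 1.18 with an adjusted p of 0.0782.

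**Figure D5:**
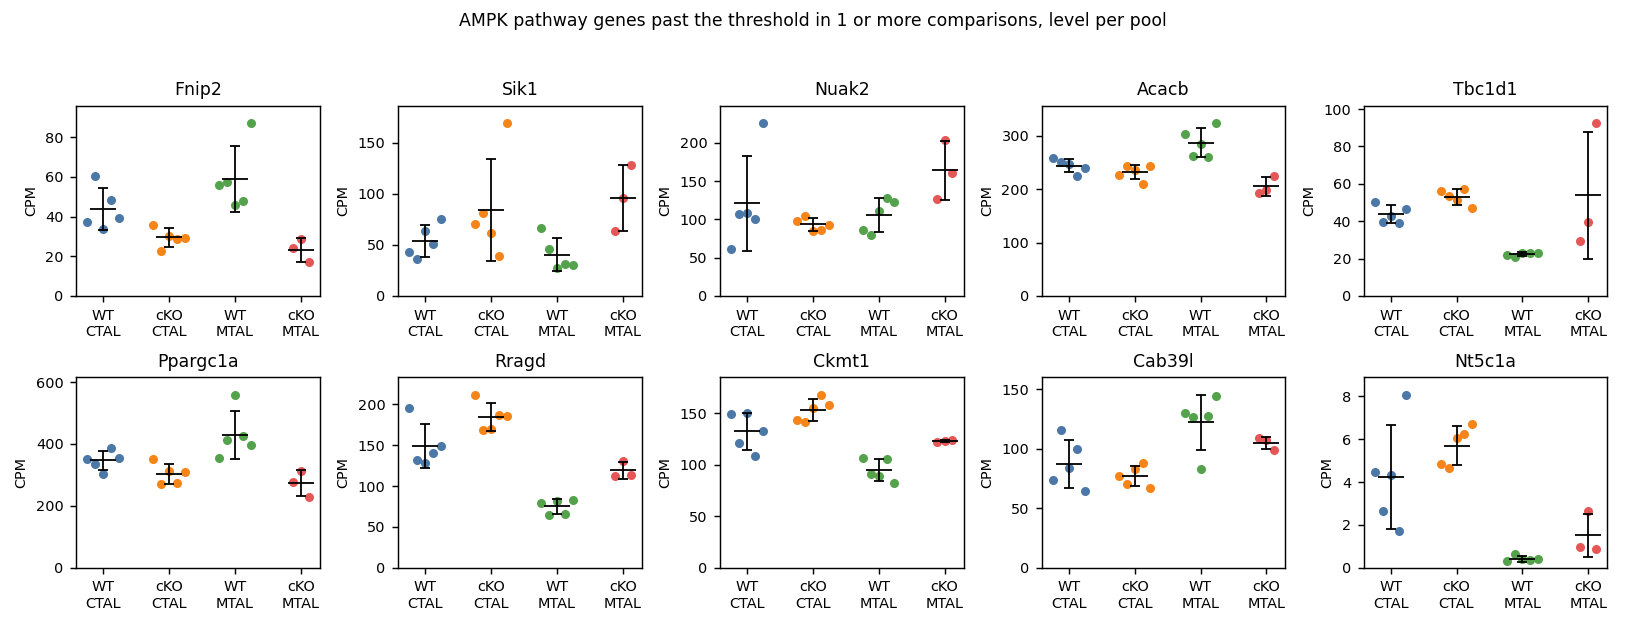
Level in CPM (y axis, from 0) of the 10 pathway genes called in at least 1 comparison, in each pool of the 4 groups (x axis), with the mean and SD of each group as black lines. *Rragd* lies at 65.1 to 82.8 CPM in WT MTAL and above 112 CPM in all other groups, and the SD of *Tbc1d1* in cKO MTAL (33.9 CPM) comes from 1 pool at 92.5 CPM.

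In CTAL, 0 of 82 pathway genes were called between the genotypes, against 1.22% of all genes, and 7 (8.54%) had an unadjusted p under 0.05, against 11.8% of all genes. *Fnip2* was the 1 gene called by the edgeR likelihood ratio test (adjusted p = 0.0216) and by DESeq2 (0.0146 with the Wald test), limma called 0, and without WT CTAL replicate 1 *Rragd* was called (log2 fold change 0.41, adjusted p = 0.0269). Between the WT segments, 3 of 80 were called, all of them lower in MTAL, where 4.1% of all genes were called in that direction. *Rragd* fell by 0.99 (adjusted p = 3.93e-05), *Tbc1d1* by 0.96 (adjusted p = 2.55e-05) and *Ckmt1*, the mitochondrial creatine kinase, by 0.48 (adjusted p = 0.00891), each past the threshold under all 21 alternatives. *Ckmt1* was at 82.3 to 106 CPM in WT MTAL and 109 to 150 CPM in WT CTAL.

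Between the cKO segments, 4 of 83 were called, with 1.12% of all genes called up and 0.631% down. *Nuak2* rose by 0.85 (adjusted p = 0.00904) and *Rragd* fell by 0.60 (adjusted p = 0.0133) in MTAL relative to CTAL. *Cab39l*, a scaffold of the LKB1 complex, rose by 0.48 (adjusted p = 0.0434), with 76.7 CPM in cKO CTAL and 107 CPM in cKO MTAL as medians. *Nt5c1a*, a nucleotidase that hydrolyses AMP, was at 4.64 to 6.72 CPM in cKO CTAL and at 0.888 to 2.67 CPM in cKO MTAL, with a log2 fold change of -1.87 (adjusted p = 0.0439). All its cKO MTAL pools were under the 3 CPM that the filter on low counts asks for, so that it entered the test only through the group where it was higher, and the count without it is 3. The calls of *Cab39l* and *Nt5c1a* held in 1 each of the 8 fits with a pool left out. Without cKO MTAL replicate 16 *Rragd* had a log2 fold change of -0.58 with an adjusted p of 0.0641. With limma on log2(TPM + 1), *Rragd* had -0.61 (adjusted p = 0.103) and *Nuak2* 1.01 (adjusted p = 0.0712). For the interaction, 0 of 84 genes were called, against 0.286% of all genes, with the smallest adjusted p at 0.0935 (*Deptor*), and 14 (16.7%) had an unadjusted p under 0.05, against 14.7% of all genes. The edgeR likelihood ratio test called 1, *Tbc1d1* (adjusted p = 0.0433), DESeq2 called 2 or 3 depending on its test, among them *Tbc1d1* and *Deptor*, and limma called 0. Without cKO MTAL replicate 18 both genes were called, at adjusted p of 0.023 and 0.041, and without cKO MTAL replicate 16 *Tbc1d1* was, at 0.0241.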

How the data were processed

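RNA of 18 pools was sequenced by the study after poly-A selection and a strand-specific library preparation. The methods name fastp for trimming and the submitters' notes name Trimmomatic. The reads were mapped to mm10 and quantified per gene with DRAGEN on a gencode annotation. The authors deposited estimated counts, not normalized, and TPM values, corrected for length and depth, for 55401 genes. It is not stated how reads shared by several genes were treated.

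Here the estimated counts were rounded, and a gene was tested if its CPM reached 3 in 5 or more pools, or in 3 or more where cKO MTAL entered. The tests ran on the pools of the compared groups with edgeR's quasi-likelihood F test after TMM normalization (edgeR version 4.0.16, R version 4.3.3), with Benjamini-Hochberg adjustment over all genes tested. Of the gene identifiers, 55141 of 55401 (99.5%) are in the GRCm38 annotation used for coordinates. Alternatives used DESeq2 (version 1.42.0), limma (version 3.58.1) on log2(TPM + 1) and log2(TPM + 0.1), where fold changes of low genes are understated, other factors, no filter, and each pool left out. Named genes were the 9 members, the called genes of each list (or the one with the smallest p), and the 3 genes most like each member. The members, lists and tests were chosen with earlier results of these data known. The scripts were tested on simulated data. Intervals cover the spread between pools, and the limit of 3 counts at a count of 0 covers counting error only. 3 further pools that the methods name as left out were not analysed here.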

Additional observations from a re-analysis of the deposited data

Results flagged for a closer look

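In groups of 5 pools, Dixon's test for a pool apart from the rest (gap over range above 0.71) was applied to the CPM of the 8 tested members and to the isoform shares, 33 groups in all, and marked 3 pools, where chance marks about 1 in 20 groups. *Camkk2* in WT MTAL replicate 11 was at 16.5 CPM, against 9.74 CPM in the next pool. The TPM share of *Prkab2* in the β class was 21.9% in WT CTAL replicate 3, against 9.55% in the next pool, and 10.6% in cKO CTAL replicate 21, against 4.49%. In both pools the implied transcript length of *Prkab2* was the shortest of its group. With edgeR's quasi-likelihood test, no member or pathway gene had a genotype effect that differed between the segments at an adjusted p under 0.05. Some alternatives called pathway genes, among them *Tbc1d1* and *Deptor*, as given above.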

How the results depend on the processing

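No paired analysis was possible because the groups compared share no replicate numbers. Over 40 pairs of a member and a comparison and 856 alternatives, 823 kept the direction, 33 reversed it and 3 were called. The number of members called was 1 in place of 0 for cKO against WT MTAL in one fit of all 18 pools with a term for *Xist* (*Camkk2*), and 1 for the cKO segments in one fit of all 18 pools with or without that term (*Prkaa2*). All reversed values had adjusted p over 0.5, and the cause was not tested. For cKO against WT MTAL the log2 fold change of *Prkaa1* was 0.066 on total counts, 0.24 and 0.25 with limma on log2(TPM + 1) and log2(TPM + 0.1) and 0.096 with the *Xist* term, and that of *Prkaa2* was 0.074 and 0.078 with limma. For cKO against WT CTAL, *Stk11* was at 0.016 on total counts and 0.083 and 0.084 with limma, and *Camkk2* at 0.0044 on total counts and 0.036 with the *Xist* term. Between the cKO segments limma gave 0.33 and 0.35 for *Prkag2* and -0.060 and -0.064 for *Camkk2*, and for the interaction *Prkaa1* was at 0.079 and 0.083 with limma and 0.033 with the *Xist* term.

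When single pools were left out, *Prkaa1* ranged on the log2 scale from -0.12 to 0.089 between the MTAL groups, from -0.0073 to 0.056 between the CTAL groups, from -0.0029 to 0.18 between the cKO segments and from -0.15 to 0.061 for the interaction. *Camkk2* ranged from -0.16 to 0.056 between the CTAL groups, *Prkab1* from -0.16 to 0.011 and *Prkab2* from -0.18 to 0.095 between the cKO segments, and *Prkab2* from -0.022 to 0.28 for the interaction. The count of pathway genes called, an alternative added after seeing the data, was also taken with single pools left out. It ranged from 3 to 7 between the MTAL groups, 0 to 1 between the CTAL groups, 3 to 5 between the WT segments, 2 to 6 between the cKO segments and 0 to 2 for the interaction. With other tests, factors and fits it ranged, in the same order, from 2 to 13, 0 to 1, 3 to 6, 1 to 8 and 0 to 3. As shares of counts in place of TPM, *Prkaa2* held 74.8%, 75.0%, 71.8% and 70.1% of its class in WT CTAL, cKO CTAL, WT MTAL and cKO MTAL, and *Prkag2* 34.7%, 38.1%, 29.4% and 31.9%, and *Prkab2* 14.2%, 10.1%, 11.5% and 10.4%.

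All genes called between the MTAL groups numbered 845, against 1304 to 1399 with the edgeR likelihood ratio test, DESeq2 or no filter, 2060 in one fit of all pools and 307 to 317 with limma. The counts were 143 between the CTAL groups, against 331 to 366 with the likelihood ratio test and DESeq2, 89 with the *Xist* term and 85 to 92 with limma, and 800 between the WT segments, against 449 and 452 with limma. They were 211 between the cKO segments, against 388 to 822 in 7 alternatives and 58 to 68 with limma, and 36 for the interaction, against 337 to 382 with the likelihood ratio test and DESeq2, 79 without a filter and 7 to 21 with limma, the *Xist* term or replicate 1 of WT CTAL counted as cKO. With single pools left out they ranged from 457 (without cKO MTAL replicate 20) to 968, from 75 (without WT CTAL replicate 10) to 188, from 538 to 784, from 104 (without cKO CTAL replicate 9) to 835 (without cKO MTAL replicate 18) and from 15 to 570 (without the same 2 pools).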
